A study of Mus musculus with 26 samples.

Results

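The tubulin genes were followed in murine oligodendrocyte progenitor cells (OPCs) and in oligodendrocytes (OLs), the cells that make myelin. The set was named by gene symbol and held 10 genes, the α-tubulin genes Tuba1a, Tuba1b, Tuba1c and Tuba4a and the β-tubulin genes Tubb2a, Tubb2b, Tubb3, Tubb4a, Tubb4b and Tubb5. Of these, 9 were listed for both cell types, with 1 transcript each, among 8177 transcripts listed for both. Tuba4a was in neither table and has no value here. The tables hold only transcripts with at least 1 FPKM (a read level that is corrected for transcript length and for library size) at the start of the chase.

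Microtubules are polymers of dimers of α-tubulin and β-tubulin, and both parts of the dimer are encoded by several closely similar genes, the isotypes. Oligodendrocytes depend on microtubules to extend their processes and to carry mRNA into the forming myelin sheath, and mutations of TUBB4A in people cause a leukodystrophy with too little myelin. Cells also adjust tubulin through the stability of its mRNA. When free dimers build up, the factor TTC5 recognises the first residues of a tubulin chain on the ribosome, and the mRNA being translated is deadenylated and degraded.

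All cells came from epiblast stem cells of the strain 129S/SvEv. The OPCs were grown with bFGF and PDGFA, and the OLs were differentiated from OPCs with noggin, IGF-1, cyclic AMP, NT3 and the thyroid hormone T3. Both were given 5-ethynyluridine (5-EU), a uridine analogue that can be coupled to biotin, for 24 h, and the OLs were still differentiating when it was added. The analogue was then replaced by uridine, and labelled RNA was pulled down and sequenced after 0, 1, 2, 4 and 6 h of this chase. There were 3 OPC replicates and 2 OL replicates, which makes 15 and 10 libraries. The study calls them biological replicates and states that each OL replicate corresponds to an OPC replicate, without saying which, so the OLs and OPCs are not unrelated samples. It also states that the differentiated cultures keep some undifferentiated OPCs. A control pulled down with no biotin was not analysed here, so any carry-over of unlabelled RNA was not removed from the values.

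The labels were checked against markers at 0 h. Of 8 oligodendrocyte markers, all were listed in OLs, with a summed level of 6136 and 2796 FPKM in OL replicates 1 and 2. Only Mbp and Cnp were listed in OPCs, with sums of 37.6 to 55.1 FPKM over the replicates. All 4 progenitor markers were listed in both cell types, and they did not move together. Gpr17, a gene of committed progenitors, stood at 5.99, 5.00 and 6.61 FPKM in OPCs and 323 and 299 FPKM in OLs. It made up most of the summed level of the list in OLs, which was 530 and 501 FPKM, and little of it in OPCs, where the sum was 186 to 307 FPKM and Ptprz1 made up most of it. Pdgfra was also higher in OLs. Cspg4 stood at 55.7, 35.7 and 43.9 FPKM against 30.7 and 29.9 FPKM (log2 difference -0.53) and Ptprz1 at 97.7, 255 and 172 FPKM against 109 and 127 FPKM (-0.46), and neither passed the test. None of 4 pluripotency markers was listed. Read depth cannot be recovered from FPKM, so no counting error is given. The 1 h libraries of the replicates numbered 1 stood apart. In OL replicate 1 the median transcript was at 64.0% of its 0 h level after 1 h and at 72.8% after 2 h, and the tubulin transcripts went from a median of 58.4% to 97.7%. In OPC replicate 1 the tubulin median went from 53.3% to 77.4% while the median transcript went from 67.9% to 54.7%. The 1 h library of OPC replicate 3 dipped less. Its tubulin median was 72.7% after 1 h and 78.9% after 2 h, and 3 of the 9 genes were above the median transcript after 1 h against 7 after 2 h. Results from the chase are therefore also given without the 1 h libraries of the replicates numbered 1, and where it bears on them without that of OPC replicate 3 as well.

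The first bases of each coding sequence are shown because they encode the residues that TTC5 reads and because they show how alike the genes are. The capitals mark the first 4 codons of 30 bases, read from the GENCODE M21 transcripts of GRCm38.
Tuba1a: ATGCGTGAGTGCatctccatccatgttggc
Tuba1b: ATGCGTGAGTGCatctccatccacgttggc
Tubb2a: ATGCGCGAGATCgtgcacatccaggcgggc
Tubb2b: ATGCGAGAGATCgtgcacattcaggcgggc
Tubb3: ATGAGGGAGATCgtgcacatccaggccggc
Tubb4a: ATGCGGGAAATCgtgcacctgcaagccggt
Tubb4b: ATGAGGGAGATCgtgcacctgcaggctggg
Tubb5: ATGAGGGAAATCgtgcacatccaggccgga

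Tuba1c carried the same 30 bases as Tuba1b. In the 3 α-tubulin genes the start codon closed exon 1 and the other 27 bases opened exon 2, at chr15:98951665-98951691 for Tuba1a, chr15:98933169-98933195 for Tuba1b (both on the minus strand) and chr15:99034094-99034120 for Tuba1c (plus strand). In the β-tubulin genes all 30 bases lay in exon 1. They were at chr13:34077900-34077929 for Tubb2a, chr13:34130204-34130233 for Tubb2b, chr17:57087484-57087513 for Tubb4a, chr17:35838024-35838053 for Tubb5 and chr2:25224561-25224590 for Tubb4b, all on the minus strand, and at chr8:123411606-123411635 on the plus strand for Tubb3. Each transcript had 4 exons. The capital letters were shared by the 3 α-tubulin genes and by Tubb3 and Tubb4b, and each of the other 4 β-tubulin genes had its own. Among 10090 listed coding sequences, each of these 6 openings occurred in the tubulin genes that carry it and in no other.

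The likeness went on beyond the start. The coding sequences of the 3 α-tubulin genes were 97.1% to 98.3% identical and those of Tubb2a and Tubb2b 96.5%, against 81.5% to 84.6% for every other pair of β-tubulin genes. The reads came from fragments selected for a short length, so a window of 30 bases was used to ask how much of a transcript also lies in another gene. This was 77.3% for Tuba1a, 75.5% for Tuba1b, 64.1% for Tuba1c, 56.9% for Tubb2a and 46.3% for Tubb2b. For Tubb4b it was 65.4%, with 55.1% in the pseudogene Tubb4b-ps1 and 0.829% in another of the 9 tubulin genes. Tubb3, Tubb4a and Tubb5 were nearly unique, at 3.70%, 2.09% and 4.89%. How the authors' counting divided shared reads is not given in the sources used here, so the values of Tuba1a, Tuba1b, Tuba1c, Tubb2a, Tubb2b and Tubb4b are uncertain as values of single genes, and those of Tubb3, Tubb4a and Tubb5 are less so.

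The labelled RNA present at 0 h was then compared between the cell types. Among the β-tubulin genes 1 was higher and 1 was lower in OLs. Tubb4a was 62.8-fold higher in OLs by the ratio of mean FPKM, Tubb5 was 3.5-fold lower, and Tuba1a was 2.1-fold higher, while the other 6 listed genes did not pass the test. Of all 8177 transcripts 31.6% passed (14.1% higher and 17.5% lower in OLs), so the share of the tubulin genes that passed was near that of all transcripts. A 0 h level here is what was made during the labelling and was still there at its end, and in bulk cultures fewer cells of a type and less RNA per cell cannot be told apart.

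Tubb4a, the isotype mutated in that leukodystrophy, stood at 3.86, 2.99 and 2.98 FPKM in OPCs, in the order of the replicate numbers, and at 251 and 160 FPKM in OLs. The groups were far apart, and OL replicate 1 was the higher of the OL libraries, as it was for the sum of oligodendrocyte markers. The difference was 5.57 ± 0.27 (SE) on the log2(FPKM + 1) scale (limma, adjusted p = 6.8e-06), and Tubb4a ranked as number 5 of 8177 transcripts by this difference.

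Tubb5, the β-tubulin gene most widely expressed across tissues, stood at 882, 775 and 868 FPKM in OPCs and at 263 and 218 FPKM in OLs. Every OPC value was above every OL value. The log2 difference was -1.81 ± 0.20 (SE) (limma, adjusted p = 0.000243).

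Tuba1a, an α-tubulin gene that is abundant in the developing nervous system, stood at 977, 672 and 933 FPKM in OPCs and at 1934 and 1686 FPKM in OLs. The groups did not overlap, and OPC replicate 2 was the lowest, as it was among the OPC replicates for every listed gene but Tubb4a. The log2 difference was 1.09 ± 0.27 (SE) (limma, adjusted p = 0.0138). This call was lost without OPC replicate 3 (adjusted p = 0.0838) and without OL replicate 1 (adjusted p = 0.0634).

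**Figure D1:**
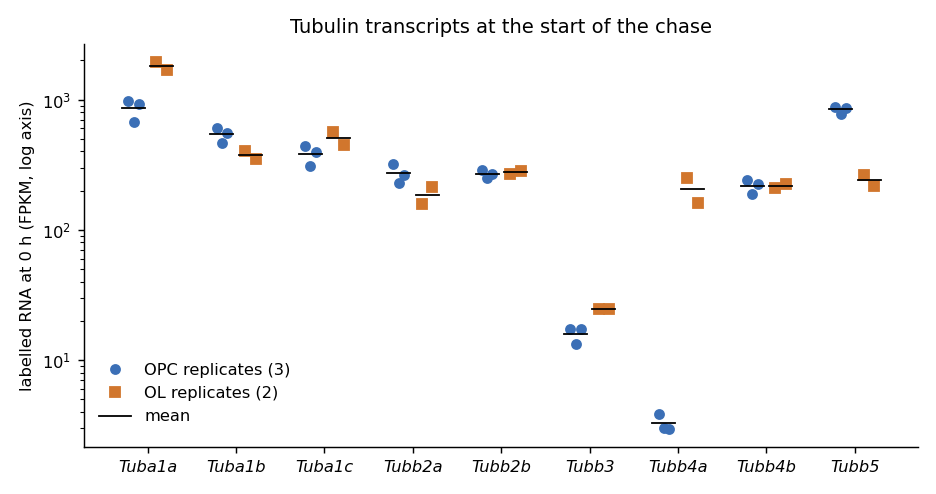
Labelled RNA of the 9 listed tubulin genes at 0 h in FPKM on a log axis, with 1 point for each replicate (circles, 3 OPC replicates; squares, 2 OL replicates) and a line at each mean. Tubb4a rises from about 3 FPKM in OPCs to 160 and 251 FPKM in OLs, Tubb5 is lower in OLs, and Tubb2b and Tubb4b sit at the same height in both.

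The other 6 genes did not pass. Tuba1b stood at 607, 461 and 551 FPKM in OPCs and 400 and 352 FPKM in OLs, with a log2 difference of -0.51 ± 0.21 (SE) (limma, adjusted p = 0.0906). Tuba1c stood at 442, 310 and 395 FPKM against 565 and 452 FPKM, with 0.42 ± 0.23 (SE) (limma, adjusted p = 0.186). For both the replicates did not overlap, although the lowest and highest values lay close together for Tuba1c.

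Tubb2a stood at 319, 230 and 266 FPKM in OPCs and 157 and 214 FPKM in OLs, with a log2 difference of -0.55 ± 0.22 (SE) (limma, adjusted p = 0.0819). Without OPC replicate 2 it passed (adjusted p = 0.0462). Tubb2b stood at 289, 251 and 269 FPKM against 268 and 284 FPKM, and Tubb4b at 242, 188 and 223 FPKM against 210 and 224 FPKM. These last genes overlapped between the cell types, with log2 differences of 0.03 ± 0.18 (SE) for Tubb2b and 0.00 ± 0.19 (SE) for Tubb4b.

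Tubb3, the isotype used as a marker of neurons, was low in both cell types. It stood at 17.4, 13.2 and 17.3 FPKM in OPCs and at 24.6 and 24.5 FPKM in OLs, with a log2 difference of 0.60 ± 0.24 (SE) (limma, adjusted p = 0.0789). Of 10 neuron markers 3 were listed in OPCs, with a sum of 13.7 to 17.6 FPKM, and 5 in OLs, with sums of 50.6 and 36.5 FPKM. Only 2 were listed in both, and their differences had opposite signs. Dcx, a microtubule-binding protein of young neurons, was higher in OLs (log2 difference 1.60, limma, adjusted p = 0.0146), and Gap43 had a difference of -0.45, which did not pass. Syt1, Syn1 and Elavl3 were listed in OLs and not in OPCs, and Elavl4 in OPCs and not in OLs. The defining markers Rbfox3, Snap25, Nefl and Nefm were listed in neither cell type, and the part of neurons in the level of Tubb3 was not tested.

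The median log2 difference over the 9 tubulin genes was 0.03, against -0.01 over all transcripts. The replicates of the cell types did not overlap for 7 of the 9 genes (all but Tubb2b and Tubb4b), against 59.3% of all transcripts.

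The order of the genes differed between the cell types. In OPCs the mean levels ran from Tuba1a (860 FPKM) and Tubb5 (842 FPKM), which overlapped, through Tuba1b (540 FPKM) to Tuba1c (383 FPKM), Tubb2a (271 FPKM) and Tubb2b (270 FPKM), where each overlapped its neighbour. Tubb4b (218 FPKM), Tubb3 (16.0 FPKM) and Tubb4a (3.27 FPKM) followed, each below all replicates of the gene before it. In OLs Tuba1a led with 1810 FPKM, followed by Tuba1c (508 FPKM) and Tuba1b (376 FPKM). The 5 β-tubulin genes Tubb2b, Tubb5, Tubb4b, Tubb4a and Tubb2a then came close together, with means of 276, 240, 217, 206 and 186 FPKM, and no neighbours among them were separated beyond their spread except Tubb2b from Tubb5. Tubb3 was the lowest in OLs.

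The summed level of the 6 β-tubulin genes of the set was 1754, 1460 and 1647 FPKM in OPCs and 1174 and 1124 FPKM in OLs. The β-tubulin gene Tubb6, given below, is not in the set and is left out of the sums, shares and ratios. Tubb5 made up 50.3%, 53.1% and 52.7% of this sum in OPCs and 22.4% and 19.4% in OLs. Tubb4a made up 0.220%, 0.205% and 0.181% in OPCs and 21.4% and 14.2% in OLs. Together, Tubb4a and Tubb5 held a smaller part of this sum in OLs than Tubb5 alone held in OPCs. The share of Tubb2b went from 16.7% ± 0.4 (SD, n = 3) to 24.0% ± 1.7 (SD, n = 2).

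The summed α-tubulin level was 2026, 1444 and 1879 FPKM in OPCs and 2899 and 2491 FPKM in OLs. Tuba1a made up 48.2%, 46.6% and 49.6% of it in OPCs and 66.7% and 67.7% in OLs, and the share of Tuba1b went from 30.4% ± 1.4 (SD, n = 3) to 14.0% ± 0.2 (SD, n = 2). The ratio of summed α-tubulin to summed β-tubulin FPKM was 1.16, 0.989 and 1.14 in OPCs and 2.47 and 2.22 in OLs. These shares and ratios are given as a description, and no test was run on them.

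**Figure D2:**
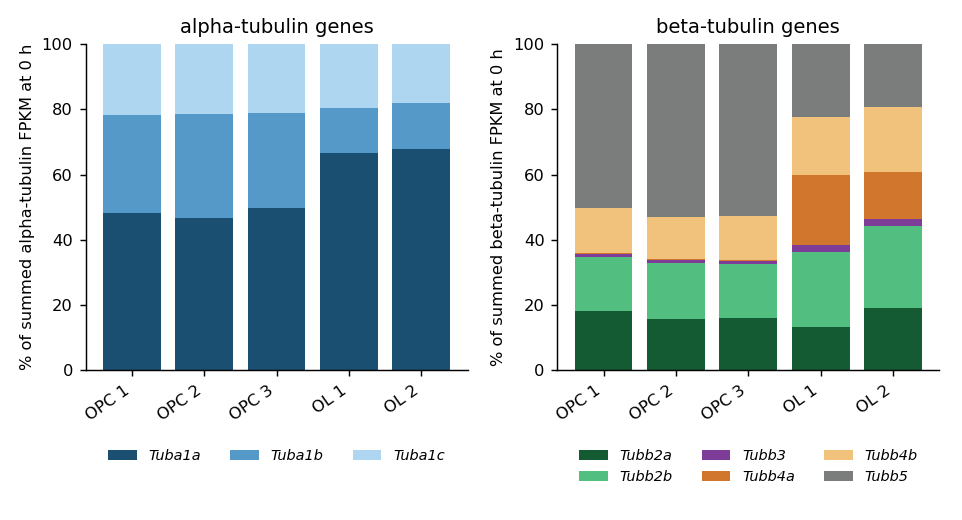
Share of each gene in the summed α-tubulin FPKM (left) and the summed β-tubulin FPKM (right) at 0 h, in percent, with 1 stacked bar for each replicate. Tubb6 is not part of the β-tubulin sum. Tubb5 (grey) goes from more than 50% of the β-tubulin sum in OPCs to about 20% in OLs, where Tubb4a (orange) makes up 21.4% and 14.2%, and Tuba1a (darkest blue) takes a larger share of the α-tubulin sum.

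The genes whose log2(FPKM + 1) values followed those of Tubb4a and Tubb5 most closely were looked up over the 25 libraries. These correlations describe libraries that share time courses and spike-in factors, and they include the step between the cell types. For Tubb4a the 5 closest of 8177 transcripts were Cnp (r = 0.992), S100b (r = 0.988), Slc44a1 (r = 0.986), Col9a1 (r = 0.985) and Mbp (r = 0.985). Cnp and Mbp encode proteins of myelin. For Tubb5 they were Cad (r = 0.985), Ran (r = 0.984), Rrm1 (r = 0.975), Ncapd2 (r = 0.973) and Cspg5 (r = 0.972). Cad and Rrm1 act in nucleotide synthesis and Ncapd2 in the condensation of chromosomes.

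Genes that act on tubulin were read from lists by function. The counts that follow are to be read against the 14.1% of all transcripts that were higher and the 17.5% that were lower in OLs at 0 h. Of the other tubulin genes only Tubb6 and Tubg1, the γ-tubulin that seeds microtubules, were listed in both cell types, and both were lower in OLs. Tubb6, another β-tubulin gene, stood at 64.8, 41.3 and 52.7 FPKM in OPCs and 7.06 and 14.4 FPKM in OLs (log2 difference -2.25 ± 0.31 (SE), limma, adjusted p = 0.000713). Tubg1 stood at 49.4, 34.7 and 48.3 FPKM against 21.3 and 21.2 FPKM (log2 difference -1.0 ± 0.22 (SE), limma, adjusted p = 0.00835).

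Among 19 tested genes that fold tubulin or form the dimer, 4 were lower and 1 was higher in OLs, which is near the share of all transcripts, and the median log2 difference was -0.28. The 4 were Cct2, Tcp1, Cct3 and Cct4, subunits of the chaperonin that folds newly made tubulin, with log2 differences of -1.20, -0.94, -0.85 and -0.69. Cct2 stood at 609, 471 and 497 FPKM in OPCs and 210 and 245 FPKM in OLs. The gene that was higher was Tbcel, a relative of the cofactors that take the dimer apart (log2 difference 1.53). Of the factors of tubulin autoregulation, Ttc5 stood at 18.9, 18.0 and 21.6 FPKM against 20.7 and 23.2 FPKM and Cnot11 at 19.4, 19.1 and 15.9 FPKM against 14.0 and 16.4 FPKM, and neither passed. Scaper was not listed in both.

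Of 17 tested genes for proteins that bind microtubules or free tubulin, 8 were higher (14.1% of all transcripts were) and 1 was lower in OLs (17.5%), with a median log2 difference of 0.68. The highest were Tppp, which promotes tubulin polymerization in oligodendrocytes, Map1b, a protein along microtubules, and Camsap2, which holds their minus ends, with 4.58, 3.24 and 2.21. Tppp stood at 4.61, 3.51 and 3.54 FPKM in OPCs and 153 and 86.4 FPKM in OLs. At the other end were Stmn1, which binds free dimers and was lower (-1.68), Clasp2 (0.98) and Map6 (1.40), with 3 more genes between.

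Of 12 tested genes for enzymes that modify tubulin, 2 were higher, which is near the 14.1% of all transcripts, and 5 were lower, against 17.5%, with a median log2 difference of -0.69. The deacetylase Sirt2, which is abundant in myelinating cells, was 4.63 higher on the log2 scale, and Atat1, which acetylates α-tubulin, was 2.62 higher. Vash1 and its partner Svbp, which remove the last tyrosine of α-tubulin, were lower (-1.48 and -0.87), as were the ligase-family genes Ttll4 (-1.11) and Ttll12 (-1.01) and 1 more gene. Among the 11 genes of microtubule nucleation, Cdk5rap2 and Tubgcp2 were lower (-1.17 and -0.98). Among the 6 severing genes, Katnal1 was higher (1.61) and Fignl1 was lower (-2.39).

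**Figure D3:**
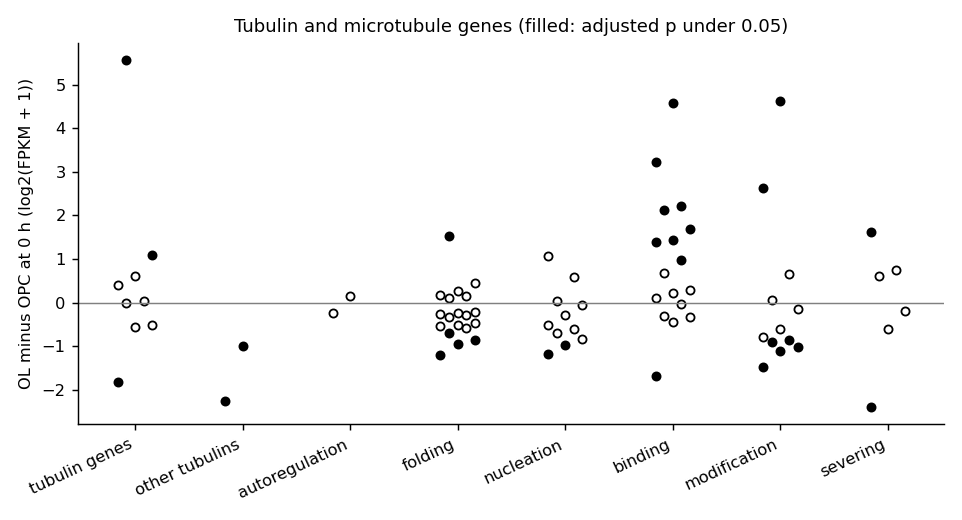
Difference in labelled RNA at 0 h (OL minus OPC, log2(FPKM + 1)) for the tubulin genes and for 7 lists of genes that act on tubulin or microtubules, 1 point for each gene. Filled points passed an adjusted p of 0.05 in limma. Tubb4a, Tppp and Sirt2 lie above 4, and the medians of the other tubulin genes, autoregulation, folding, nucleation and modification lie below 0.

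How long the labelled tubulin RNA lasted was read from the chase, as the percentage of a transcript's 0 h level on the spike-in scale. Tubulin RNA outlasted most of the labelled RNA in both cell types. Tubb3 kept the least of the 9 genes after 6 h in every replicate but OPC replicate 1, where Tubb4b did. After 6 h all 9 genes kept more than the median transcript in OPC replicates 1 and 2 and in both OL replicates, and 8 of 9 did in OPC replicate 3, where Tubb3 was the exception. The median transcript then kept 14.4%, 11% and 17.7% in OPCs, and 31.5% and 36.6% in OLs. The median over the tubulin genes was 46.9%, 75.1% and 54.2% in OPCs and 63.1% and 67.3% in OLs.

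Tuba1a, which had the highest mean level in both cell types, kept 56.4%, 96.9% and 68.6% of its 0 h level after 6 h in OPCs and 61.8% and 69.0% in OLs. Tubb5 kept 42.6%, 75.1% and 53.4% in OPCs and 63.1% and 60.5% in OLs. Tubb4a, in spite of its low level in OPCs, kept 58.8%, 78.0% and 60.6% in OPCs and 89.5% and 66.9% in OLs. For all 3 genes the ranges of the cell types overlapped, although these were the genes that passed the test at 0 h.

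Tubb2a kept 46.8%, 60.4% and 49.7% after 6 h in OPCs and 88.9% and 111% in OLs, and its near-copy Tubb2b kept 56.4%, 71.0% and 62.9% against 97.5% and 106%. Tubb4b kept 24.4%, 20.5% and 35.2% in OPCs and 51.5% and 76.0% in OLs. For these 3 genes the OL values lay above all OPC values, as they did for the median transcript. How many of all transcripts did so was not counted.

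Tubb3 kept 28.0%, 15.9% and 14.9% in OPCs and 49.0% and 37.5% in OLs. Its groups did not overlap either, and neither did those of the median transcript. Tuba1b kept 46.9% to 78.1% in OPCs and 62.3% to 65.0% in OLs, and Tuba1c 49.7% to 83.4% and 67.3% to 67.6%. Both α-tubulin genes had their OL values inside the OPC range.

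**Figure D4:**
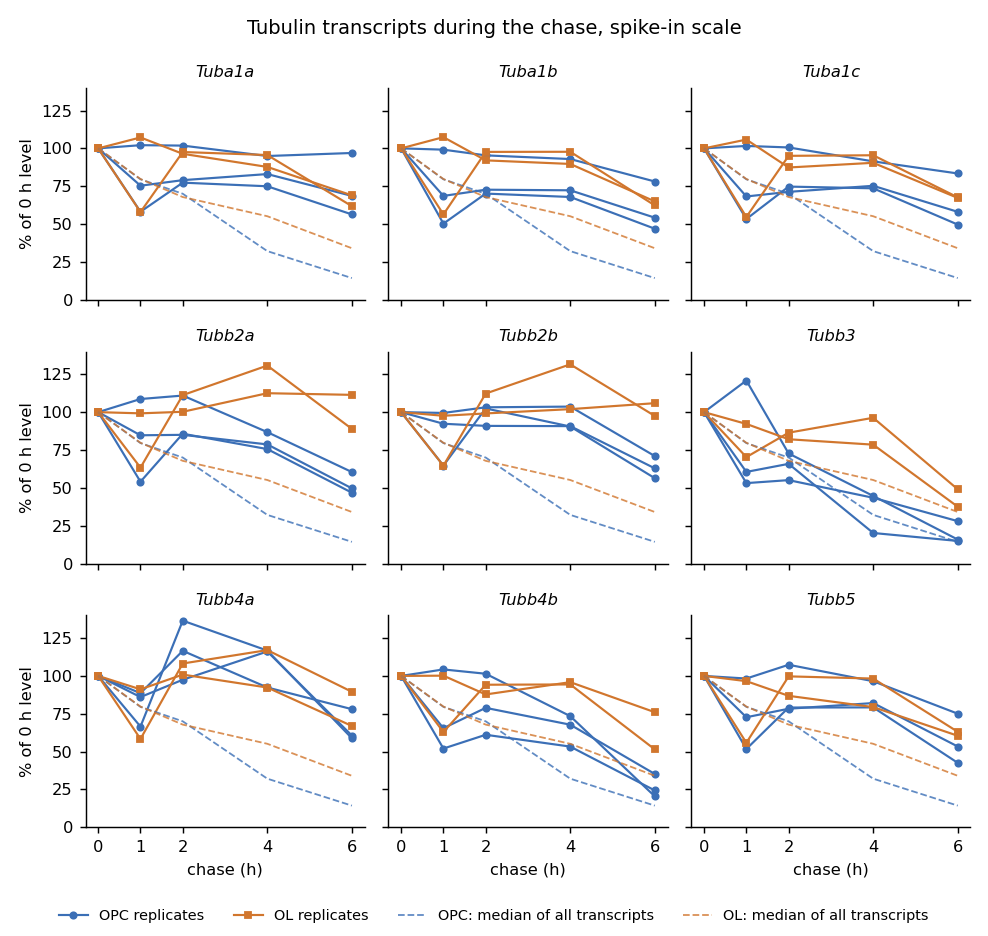
Labelled RNA of each tubulin gene in percent of its 0 h level against hours of chase, with 1 line for each replicate (circles, OPC; squares, OL); dashed lines are the mean over replicates of the median of all listed transcripts. At 6 h the tubulin lines lie above the dashed line of their cell type, by the least for Tubb3, and the replicates numbered 1 dip at 1 h.

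The decline was tested as a slope of log2(FPKM + 1) per hour over the libraries of a cell type. In OPCs 7 of the 9 genes fell, against 81.9% of all 8530 transcripts that fell. The tubulin slopes were shallow, with a median of -0.09 per hour against -0.38 for all transcripts. Tubb3 and Tubb4b were the steepest, with -0.34 ± 0.05 (SE) (limma, adjusted p = 5.2e-06) and -0.28 ± 0.04 (SE) (limma, adjusted p = 3.7e-06). Tuba1a (-0.05 ± 0.03, SE) and Tubb4a (-0.05 ± 0.05, SE) did not pass, with adjusted p of 0.0665 and 0.396 (limma). Without the doubtful 1 h library 8 of 9 fell, against 82.1% of all transcripts, as Tuba1a then passed (adjusted p = 0.0124), and 8 of 9 also fell when the 1 h library of OPC replicate 3 was left out too, against 82.6% of all transcripts. Without OPC replicate 2 and without OPC replicate 3 the count was 5 of 9, against 76.4% and 81.4% of all transcripts, since Tuba1c (limma, adjusted p = 0.0537 and 0.0757) and Tubb2b (limma, adjusted p = 0.0598 and 0.0728) no longer passed.

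In OLs only Tubb3 fell, with a slope of -0.15 ± 0.05 (SE) per hour (limma, adjusted p = 0.00702), against 68.9% of all 9751 transcripts that fell. The median slope was -0.07 for the tubulin genes and -0.20 for all transcripts. The call of Tubb3 was lost without OL replicate 2 (slope -0.11, limma, adjusted p = 0.242). The count also rested on the 1 h library of OL replicate 1. Without it 6 of the 9 genes fell, namely Tuba1a, Tuba1b, Tuba1c, Tubb3, Tubb4b and Tubb5, against 72.1% of all transcripts, and the median slope of the tubulin genes was -0.10. Tubb2a and Tubb2b had slopes of 0.04 ± 0.04 (SE) each with all libraries and of 0.01 without that library.

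The slopes rest on the spike-in factor of each library. Every library was also divided instead by its own median over transcripts. The median slope of all transcripts then moved from -0.38 to -0.01 in OPCs and from -0.20 to 0.01 in OLs. All tubulin slopes were positive on this scale, as those of Tubb2a and Tubb2b in OLs already were on the spike-in scale. On that scale 8 of 9 genes rose in each cell type, all but Tubb3, against 34.1% of transcripts in OPCs and 31% in OLs. The fitted slope of every tubulin gene was above the median slope in both cell types and on both scales.

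Whether the decline differed between OLs and OPCs was tested as the difference of the slopes over all 25 libraries. On the spike-in scale 3 genes declined less in OLs, against 31.5% of all 8177 transcripts that did, and 0 declined more (0.404% of all transcripts did). Tubb4b had slopes in its replicates of -0.27, -0.36 and -0.20 in OPCs and -0.10 and -0.06 in OLs, and the difference was 0.20 ± 0.06 (SE) per hour (limma, adjusted p = 0.0195). Tubb3 had slopes of -0.23, -0.39 and -0.41 against -0.11 and -0.20, with a difference of 0.19 ± 0.07 (SE) (limma, adjusted p = 0.0434). Tubb2a had slopes of -0.12, -0.13 and -0.15 against 0.04 and 0.03, with a difference of 0.17 ± 0.05 (SE) (limma, adjusted p = 0.0153).

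For each of these 3 genes every OL slope lay above every OPC slope. The median slope of all transcripts separated in the same way (-0.32, -0.46 and -0.33 in OPCs, -0.19 and -0.20 in OLs). How many of all transcripts did so was not counted. Tubb2b came next with a difference of 0.12 ± 0.05 (SE) and did not pass (limma, adjusted p = 0.0595). In the other 5 genes the difference lay between -0.02 and 0.03 per hour with standard errors of 0.05 to 0.07, which does not show that these genes declined alike. Tubb4a and Tubb5, which separated the cell types at 0 h, were among these 5, with 0.03 ± 0.07 (SE) and 0.02 ± 0.05 (SE).

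These calls were not firm. With 1 slope for each replicate 0 of the 9 genes passed (limma, 3 at an unadjusted p under 0.05), against 23.7% of all transcripts that declined less in OLs. The count was also 0 without OPC replicate 2, without OL replicate 1 and without OL replicate 2 (limma, 4, 2 and 3 genes at an unadjusted p under 0.05), where the share of all transcripts that declined less was also lower, at 20.6%, 9.2% and 11.6%. Without the 1 h libraries of the replicates numbered 1, Tubb4b, Tubb2a and Tubb2b passed, against 25.2% of all transcripts, and Tubb3 did not (adjusted p = 0.0519). Leaving out the 1 h library of OPC replicate 3 as well gave the same calls, against 24.6% of all transcripts (Tubb3, adjusted p = 0.0541). On the scale of library medians the direction turned for Tubb4b, Tubb2a and Tubb3 (-0.06, -0.09 and -0.02 per hour, none past the threshold). On that scale Tuba1a, Tuba1b, Tuba1c and Tubb5 rose in both cell types and rose less in OLs, with differences of -0.28, -0.24, -0.24 and -0.24, against 24.1% of all transcripts whose slope was lower in OLs.

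**Figure D5:**
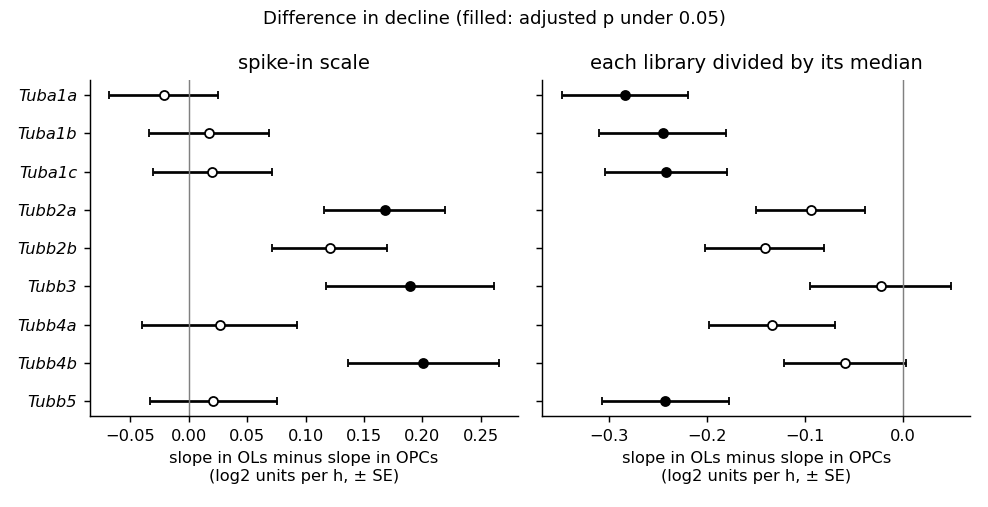
Difference between the slopes of OLs and OPCs for each tubulin gene (log2 units per hour, ± SE), on the spike-in scale (left) and with each library divided by its median (right). Filled points passed an adjusted p of 0.05 in limma. The filled genes are Tubb2a, Tubb3 and Tubb4b on the left, above 0, and Tuba1a, Tuba1b, Tuba1c and Tubb5 on the right, below 0.

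The deposited half-lives end at a ceiling of 6 h, and most tubulin values sat on it. Tuba1a, Tubb2a, Tubb2b and Tubb4a were at the ceiling in all 5 replicates, as were 16.1% of the 8112 transcripts with a half-life in each. In OLs all 9 genes sat on it in both replicates, as did 31.7% of transcripts. In OPCs Tuba1b (5.50 h in replicate 1), Tuba1c (5.94 h) and Tubb5 (5.92 h) missed it in that replicate only.

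Tubb3 was below the ceiling in every OPC replicate, with half-lives of 3.27, 3.44 and 2.19 h in OPCs against 6 h in both OL replicates. The groups did not overlap, as was the case with longer values in OLs for 35.9% of all transcripts, and the log2 difference was 1.04 ± 0.25 (SE), which did not pass (limma, adjusted p = 0.130). Since both OL values are the ceiling itself, they carry no spread of their own, and the difference and its p describe values cut off at 6 h. Without OPC replicate 3 it passed (adjusted p = 0.0330). Tubb4b had 2.95, 6 and 5.85 h in OPCs and 6 h in both OL replicates, so replicate 1 alone set it apart (log2 difference 0.35 ± 0.40, SE). The test of half-life was passed by 0 of the 9 tubulin genes (limma, 1 at an unadjusted p under 0.05) and by 3.54% of all transcripts. With half-lives refitted without the 1 h libraries of the replicates numbered 1, 0 of the 9 passed, against 319 of 8112 transcripts. The log2 differences were then 1.05 for Tubb3 and 0.35 for Tubb4b. Where both cell types are at the ceiling a difference in half-life cannot be seen, and where OLs alone are at it the size of the difference is cut short.

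The study compared the cell types for the effect of the codons UUU and AAA, whose tRNAs differ in their modifications, on mRNA stability, so the use of these codons by the tubulin genes was counted. All 9 coding sequences used both less than the median listed transcript. UUU made up 13% to 30% of the 20 to 24 phenylalanine codons (UUU and UUC) of a tubulin gene, against a median of 44.4% over 10048 listed transcripts. AAA made up 6.67% to 31.2% of the 14 to 19 lysine codons (AAA and AAG), against a median of 37.5% over 10077. The third codon position was G or C in 64.5% to 78.9% of codons, above the median of 60.6% in all 9. Tubb3 had the steepest fitted slope in OPCs, although Tubb4b was steeper in OPC replicate 1. Tubb3 also had the highest share of AAA (31.2%) and the highest third-position share (78.9%), with 13.6% UUU. The 3 α-tubulin genes had the highest share of UUU (30%). For OPCs the study reports no significant change of half-life with the share of UUU or AAA, and for oligodendrocytes shorter half-lives as it rises. With 9 genes of common descent, no relation between these shares and the decline was tested.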

How the data were processed

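RNA labelled with 5-EU was measured in 25 chase libraries. Reads were clipped (fastx_clipper), mapped by the authors to GRCm38 (HISAT2 2.1.0) and turned into FPKM of canonical coding transcripts, GENCODE vM9, by StringTie 1.3.5 and ballgown. The authors used the reads of a labelled spike-in mix to scale the deposited FPKM, so an error in a library's factor moves all of its transcripts together. The deposited half-lives were fitted by the authors by least absolute deviations, with a ceiling of 6 h. A refit came within 0.01 h for 98.5% to 99.9% of transcripts. The tables also name transcripts by gene symbol, which was used here.

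FPKM are not counts and read depth is unknown, so log2(FPKM + 1) was tested with limma 3.58.1 in R 4.3.3 (moderated, with trend), with 1 intercept for each replicate in the slopes. The log2 half-life was tested likewise without trend. All tests were two-sided, fitted on every transcript, and adjusted by Benjamini-Hochberg with a threshold of 0.05. A log2 difference with the added 1 understates the change of low transcripts such as Tubb4a in OPCs. The fits were tested on simulated data. Sequences, exons and codons came from GENCODE M21 (GRCm38), in which all 10104 listed transcripts were found by identifier, and amino acid sequences were not used here. Cell type, replicate and time came from the labels. The tubulin genes and the lists were chosen with earlier results of these data known. All listed tubulin genes are named. Of the other lists, genes past the threshold at 0 h or for half-life are named, or the 3 highest and 3 lowest where more than 6 passed, except 1 half-life result of the microtubule lists that is not reported here. For the tubulin genes with the highest and the lowest log2 difference, the 5 transcripts with the highest Pearson r over the 25 libraries are named. The alternatives were another pseudocount, a minimum of 5 FPKM, library medians as scale, no trend, a replicate block, refitted half-lives and leaving out each replicate. Leaving out 1 h libraries was added after the data were seen.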

Additional observations from a re-analysis of the deposited data

Results flagged for a closer look

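The slope of the decline differed between the cell types for 3 of the 9 tubulin genes by a test of the difference itself (limma over 25 libraries), which is near the 31.5% of all transcripts that declined less in OLs. With 1 slope for each replicate 0 of the 9 passed (limma, 3 at an unadjusted p under 0.05), against 23.7% of all transcripts. The value, OLs minus OPCs in log2 units per hour, was 0.20 for Tubb4b (adjusted p = 0.0195), 0.17 for Tubb2a (adjusted p = 0.0153) and 0.19 for Tubb3 (adjusted p = 0.0434). In all 3 every OL slope lay above every OPC slope, as was the case for the median slope of all transcripts. Tubb2a did not decline in OLs (slopes of 0.04 and 0.03). The median difference over all 8177 transcripts was 0.14, so the median transcript moved the same way on this scale. The part of the spike-in factors was not tested beyond the rescaling by library medians, on which the 3 values were -0.06, -0.09 and -0.02. No test for a single value far from the rest was run within the groups of 3 and 2 replicates.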

How the results depend on the processing

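The calls at 0 h for Tubb4a and Tubb5 kept their direction and passed under every alternative run, and the count of tubulin genes past the threshold stayed at 3 or moved between 2 and 4. Over all transcripts the count at 0 h was 1183 to 2912 with 1 replicate left out. For half-life the count of tubulin genes was 0, and 0 to 1 with 1 replicate left out, and that of all transcripts went from 287 to 0 with the replicate block (1554 at an unadjusted p under 0.05), to 1 with each replicate centred on its median, to 23 without the 6 h libraries and to 167 to 236 with 1 replicate left out. With half-lives refitted on a common decay curve, 84 were longer and 192 shorter in OLs, against 275 and 12. The study matches the OL replicates to OPC replicates without giving the numbers. The replicate numbers were not taken as pairs, since nothing states that they mark the match. The differences between the replicates numbered 1 and 2 of OPCs and OLs correlated at r = 0.04 at 0 h and r = -0.06 for half-life. OPC replicate 3 had no part in this. The 1 h libraries did go by number. The median transcript was then at 67.9% (OPC) and 64.0% (OL) in replicates 1 and at 95.3% and 95.5% in replicates 2. Whether the numbers mark the match was not tested. With the replicate block the 0 h count of all transcripts was 2253 and that of the tubulin genes 3. In the slopes, dropping the intercept for each replicate (no replicate block) kept 7, 1 and 3 tubulin genes past the threshold for OPCs, OLs and their difference. For OPCs the count was 5 to 7 with 1 replicate left out. For OLs the count was 3 without OL replicate 1 and 0 without OL replicate 2, each a fit on 1 replicate. Of all 9751 transcripts 5787 and 4962 then fell. The count was 6 without the doubtful 1 h library and 8, all rising, on library medians. For the difference it was 0 with 1 slope for each replicate and 0 to 3 with 1 replicate left out, where the count of all transcripts was 765 to 2668 against 2609. On library medians the slopes in OPCs turned to 0.46 for Tuba1a, 0.42 for Tuba1b, 0.43 for Tuba1c, 0.38 for Tubb2a, 0.43 for Tubb2b, 0.11 for Tubb3, 0.36 for Tubb4a, 0.23 for Tubb4b and 0.41 for Tubb5. In OLs they turned to 0.19 for Tuba1a, 0.19 for Tuba1b, 0.20 for Tuba1c, 0.094 for Tubb3, 0.24 for Tubb4a, 0.18 for Tubb4b and 0.18 for Tubb5. The differences turned to -0.24 for Tuba1b, -0.24 for Tuba1c, -0.094 for Tubb2a, -0.023 for Tubb3, -0.059 for Tubb4b and -0.24 for Tubb5, and those of Tubb2b and Tubb4a, which passed on neither scale, to -0.14 and -0.13. This scale removes the common decline by its construction, and which scale is nearer to the cells was not tested. Depth is unknown, so it could not be told which values were limited by it.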

Other observations

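The decline of genes that act on tubulin is given beside that of all transcripts, of which 81.9% fell in OPCs with a median slope of -0.38 per hour and 68.9% in OLs with a median of -0.20. The tubulin genes had a median of -0.09 in OPCs, and no test between groups of genes was run. In OPCs the median slope was -0.40 per hour over the 11 genes of microtubule nucleation, all of which fell, -0.47 over the 6 severing genes, all of which fell, -0.30 over 17 binding genes, 13 of which fell and 1 rose, and -0.29 over 12 modifying enzymes, 9 of which fell. The 19 folding genes also had a median of -0.09, with 9 that fell and 2 that rose. Of all 8530 transcripts 432 rose in OPCs. In OLs the medians were -0.21, -0.24, -0.20 (22 genes), -0.18 (15 genes) and -0.08 (20 genes) in the same order. Map1s, a microtubule-associated protein, passed the test of half-life and was longer-lived in OLs (log2 difference 2.31, limma, adjusted p = 0.0444), but this call was lost with the replicate block (adjusted p = 0.191), with each replicate centred on its median (0.0509), on a common decay curve (0.168), without any 1 of the OPC replicates (0.118 to 0.127) and without OL replicate 1 (0.0553).

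Astrocyte and progenitor markers also moved between the cultures. Slc1a2 was higher in OLs (log2 difference 1.60, limma, adjusted p = 0.00116) and Slc1a3 lower (-0.72, limma, adjusted p = 0.0396). Gja1 stood at 42.0, 40.2 and 35.8 FPKM in OPCs and at 40.1 and 188 FPKM in OLs and did not pass (limma, adjusted p = 0.111). The summed astrocyte markers were 221 and 448 FPKM in OL replicates 1 and 2, so the replicate with the higher sum was the one with the lower sum of oligodendrocyte markers. Gfap and Aldh1l1 were listed only in OLs and Aqp4 in neither. Of the 4 progenitor markers Gpr17 was 5.51 higher (limma, adjusted p = 2.5e-06) and Pdgfra 1.70 higher (limma, adjusted p = 0.00591), while Cspg4 (-0.53, limma, adjusted p = 0.0961) and Ptprz1 (-0.46, limma, adjusted p = 0.323) had negative differences that did not pass. The part of these cell types in the tubulin levels was not tested.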
